A study of Mus musculus with 2 samples.

Results

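The genes described here are the nucleoporins outside the Y-shaped scaffold complex, the soluble receptors that carry cargo through the nuclear pore, and the Ran system that gives this transport its direction. They were chosen by gene symbol from a table of 17359 genes, and 49 genes matched. The rule left out 7 further nucleoporin genes, which are 6 of the Y complex and Nup98. Of the 49, 47 reached a mean of 1 TPM, which counts transcripts relative to a fixed library total, and are compared below, as are 12882 genes in all. Nup62cl, a paralog of the channel nucleoporin gene Nup62, was below that level at 0.35 TPM in siSCR and 0.67 TPM in siChd4. Kpna7, an importin alpha gene, had 0.06 TPM in siSCR and 0 TPM in siChd4, from 1 and 0 reads.

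RNA came from mouse neural stem cells, the dividing precursors of neurons and glia. Cells of the control group received a scrambled small interfering RNA (siSCR, genotype label control) and those of the other group an siRNA against Chd4 (siChd4, genotype label Chd4 knockdown). Each group held 1 library, so no difference below can be set against the spread between cultures. Strain, age, siRNA dose and harvest time are not stated in the labels. The series title concerns Seh1, a nucleoporin of the Y complex, in neurogenesis, and Chd4 is the motor subunit of NuRD, a remodeller of chromatin.

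The libraries held 19816811 (siSCR) and 20072009 (siChd4) estimated counts. Chd4 was at 250 TPM in siSCR and 203 TPM in siChd4, a TPM fold of 0.815 with a 95% counting interval of 0.795 to 0.836. Its log2 ratio of -0.29 was undercut by 19.4% of the genes compared, and it was -0.14 with the trend with transcript length subtracted. All 9 neural stem cell markers that were looked up were present, at 18.6 to 7004 TPM in siChd4 and 21.6 to 6105 TPM in siSCR. All 7 neuron markers were higher in siChd4, with a summed level of 603 TPM against 456 TPM in siSCR. The 7 oligodendrocyte lineage markers summed to 952 against 932 TPM, with Mog under 3 counts in both libraries. The microglia, endothelium and fibroblast markers in the table summed to at most 3.21 TPM per list in either library. Whether any of these markers has a part in the differences below was not tested. In bulk RNA, fewer cells of a type and less RNA per cell cannot be told apart.

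The nuclear pore is a ring-shaped channel built from many copies of each nucleoporin. Transmembrane nucleoporins anchor it in the nuclear envelope, an inner ring forms its core, and nucleoporins rich in phenylalanine-glycine repeats fill the channel. Importins bind cargo in the cytoplasm and release it where Ran carries GTP, while exportins bind cargo together with Ran-GTP in the nucleus. Importin alpha paralogs are known to be exchanged during neural differentiation, and Nup210 is known for its induction in muscle and neural differentiation.

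Promoter windows are shown first, because several of these genes, among them the importin alpha gene Kpna2, are expressed in step with the cell cycle. RefSeq promoter sequences (build GRCm38.p6) were found for 39 of the 47 genes. The 3 below are the gene with the lowest ratio, the most abundant adaptor gene and the 1 adaptor gene that was higher in siChd4. Each is the 250 bases before the annotated start, 5′ to 3′ on the gene's strand. Capitals mark CCAAT and the words TTTGAA and TTCGAA of the cell cycle genes homology region, read on both strands.
Ndc1, chr4:107367797-107368046, plus strand: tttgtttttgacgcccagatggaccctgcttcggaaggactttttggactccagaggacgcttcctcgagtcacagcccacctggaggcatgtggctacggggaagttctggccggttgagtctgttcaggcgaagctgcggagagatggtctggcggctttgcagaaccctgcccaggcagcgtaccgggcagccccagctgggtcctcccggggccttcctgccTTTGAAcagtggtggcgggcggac
Kpna2, chr11:106999526-106999775, minus strand: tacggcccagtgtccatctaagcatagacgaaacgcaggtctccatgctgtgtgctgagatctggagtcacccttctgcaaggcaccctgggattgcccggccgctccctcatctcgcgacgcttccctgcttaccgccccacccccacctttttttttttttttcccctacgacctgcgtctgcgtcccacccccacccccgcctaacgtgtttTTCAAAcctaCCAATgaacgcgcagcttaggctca
Kpna4, chr3:69127093-69127342, minus strand: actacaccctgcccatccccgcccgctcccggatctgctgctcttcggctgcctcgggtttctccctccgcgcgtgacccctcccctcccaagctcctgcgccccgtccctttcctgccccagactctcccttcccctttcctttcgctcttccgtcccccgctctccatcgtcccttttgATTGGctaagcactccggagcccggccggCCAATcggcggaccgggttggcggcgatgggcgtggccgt

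The Ndc1 window held TTTGAA with its first base 24 bases before the start and no CCAAT. The Kpna2 window held 1 match of each kind, at 35 bases (TTTGAA, on the other strand) and 25 bases (CCAAT) before the start. The Kpna4 window held 2 CCAAT matches, at 69 and 40 bases, and no match to TTTGAA or TTCGAA. Windows of Tnpo1, the gene with the next lowest ratio after Ndc1, held no match of either kind and are not printed. Over the 45 windows of the 39 genes, 37.8% held CCAAT and 20% held TTTGAA or TTCGAA. Among 13311 windows of the 10330 compared genes that had one, the shares were 35.7% and 12.1%. Among all 32851 windows of the RefSeq table they were 33.8% and 17.1%. In the 17 windows of G2/M genes, found for 17 of 20 genes, 94.1% held CCAAT and 47.1% held TTTGAA or TTCGAA. The 9 pore and transport genes with TTTGAA or TTCGAA had a median log2 ratio of -0.25, and the 30 without had -0.22. The 16 genes with CCAAT had a median of -0.16, and the 23 without had -0.24. These differences were not tested. A match is a description of these letters and not of a factor's binding.

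Most of the pore and transport genes were slightly lower in siChd4, a few were much lower, and no gene of the 47 was much higher. Ratios are log2 of siChd4 over siSCR after 1 was added to each TPM, which understates the difference of low genes. Of the 47, 42 were below 0, where 55.3% of all 12882 genes were. Under other scalings, on FPKM or with a length trend subtracted, 38 to 40 were below 0, where 47.7% to 51.3% of all genes were. Gle1, Nup210l, Nup214, Nup62 and Xpo7 differed in sign between settings. A difference of at least 1.2-fold lower was found for 19 (40.4%), where 22.3% of all genes had one. No member was at least 1.2-fold higher, where 18.1% of all genes were. At 1.5-fold, 3 were lower (Ndc1, Tnpo1 and Xpo4) beside 4.47% of all genes, and 0 higher beside 6.75%. The 95% counting interval of the TPM fold, which covers counting error only, lay wholly below 1 for 38 members and above 1 for 4. Over all genes the shares were 34.1% and 25.1%. Such intervals are narrower at higher counts, and the members' median level was 75.1 TPM, against 28.8 TPM over all genes. The interval counts are therefore not like for like. The members' median log2 ratio was -0.24, against -0.04 over all genes. Their summed level was 5872 TPM in siSCR and 4946 TPM in siChd4, a ratio of 0.842.

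**Figure D1:**
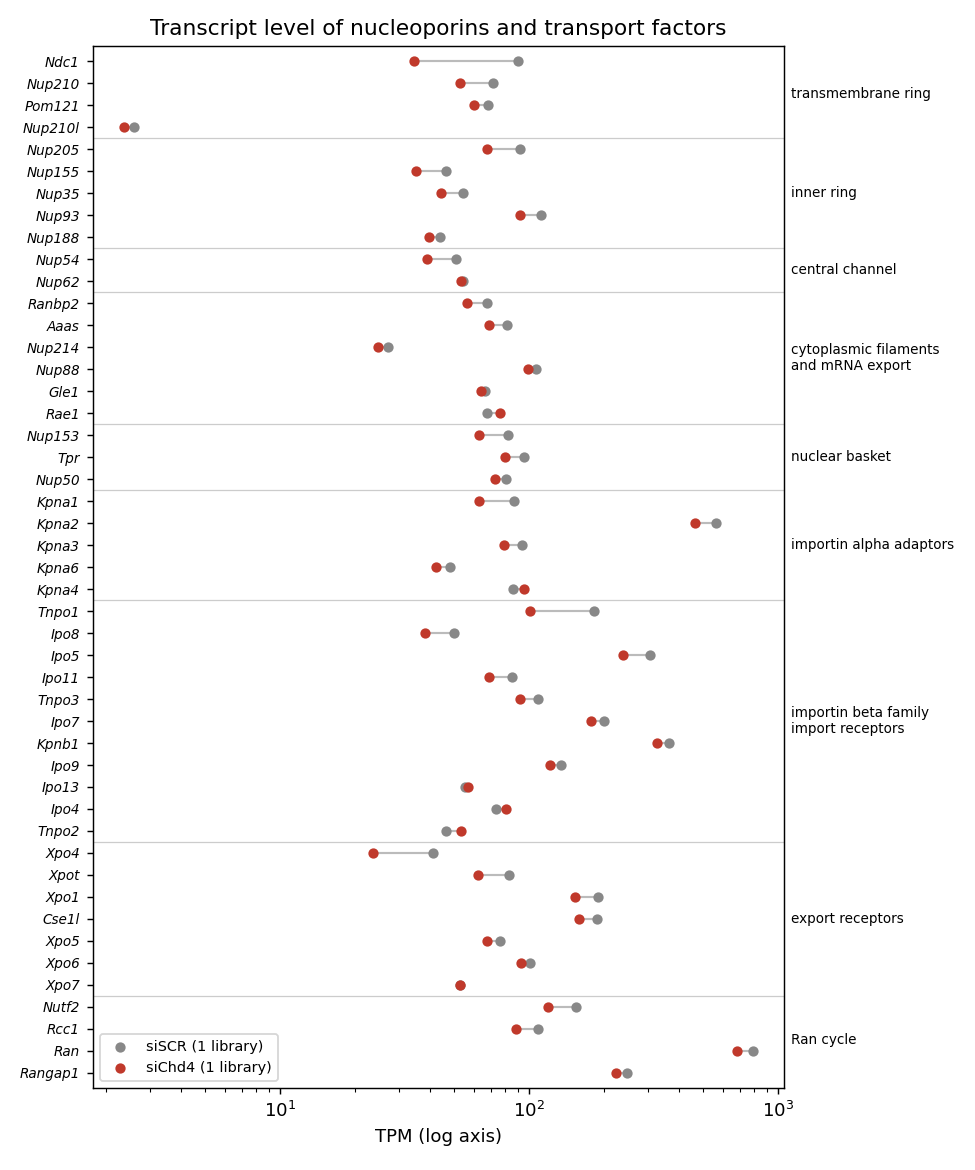
Level of each of the 47 genes in TPM (log axis) in the siSCR library (grey) and the siChd4 library (red), grouped by role, with a line joining both values of a gene. In 42 rows the red point is to the left, and the widest gap is that of Ndc1, from 90.2 to 34.5 TPM.

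These are abundant transcripts: 45 of the 47 were above the median level of the 12882 genes, and 8 were in the highest 10%. Those 8 were Ran, Kpna2, Kpnb1, Ipo5, Rangap1, Ipo7, Cse1l and Xpo1. Below the median were Nup210l (2.36 against 2.58 TPM) and Nup214 (24.6 against 27.1 TPM, siChd4 first), the least abundant of the 47. Read counts per gene and library ran from 102 to 16912 for the compared members, so counting error was small beside the larger differences.

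Transmembrane nucleoporins held the largest difference of the set. Ndc1, a membrane protein that anchors the pore and recruits other nucleoporins to it, was at 90.2 TPM in siSCR and 34.5 TPM in siChd4. Its TPM fold was 0.383 (95% counting interval 0.357 to 0.410), and its log2 ratio of -1.36 was undercut by 0.171% of all genes compared. Nup210, a glycoprotein of the pore membrane, was at 71.4 TPM in siSCR and 52.7 TPM in siChd4 (0.738-fold, 0.704 to 0.774). Pom121, which takes part in pore assembly, was at 68.1 TPM in siSCR and 59.8 TPM in siChd4 (0.878-fold, 0.833 to 0.926). The Ndc1 transcript was thus the most abundant of these in siSCR and less abundant than Pom121 and Nup210 in siChd4. The TPM ratio of Ndc1 to Pom121 was 1.33 in siSCR and 0.578 in siChd4. Nup210l, a paralog of Nup210, had a fold of 0.915 with an interval of 0.692 to 1.21, which holds 1.

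Inner ring nucleoporins, which form the core of the pore around the channel, were all lower, with a median log2 ratio of -0.29. At least 1.2-fold lower were 4 of 5. Over all genes compared, 55.3% were below 0 and 22.3% were at least 1.2-fold lower. Nup205, a large scaffold protein, was at 91.8 TPM in siSCR and 67.9 TPM in siChd4 (0.740-fold, 0.706 to 0.775). Nup155, which binds the pore membrane and Ndc1, was at 46.5 TPM in siSCR and 35.0 TPM in siChd4 (0.752-fold, 0.707 to 0.799). Nup35, another membrane-binding partner of Ndc1, was at 54.1 TPM in siSCR and 44.1 TPM in siChd4 (0.815-fold, 0.748 to 0.889). Nup93, which joins the scaffold to the channel nucleoporins, was at 111 TPM in siSCR and 91.7 TPM in siChd4 (0.823-fold, 0.777 to 0.871). Nup188, the paralog of Nup205, differed least, at 44.0 TPM in siSCR and 39.8 TPM in siChd4 (0.904-fold, 0.848 to 0.964). The paralogs Nup205 and Nup188 had fold intervals that did not overlap.

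The channel, basket and cytoplasmic nucleoporins differed less evenly. Of the channel proteins with phenylalanine-glycine repeats, Nup54 was at 50.7 TPM in siSCR and 38.8 TPM in siChd4 (0.766-fold, 0.695 to 0.846). Its complex partner Nup62 was nearly equal, at 54.3 TPM in siSCR and 53.2 TPM in siChd4 (0.980-fold, 0.914 to 1.05). Nupl1, the older symbol under which the table lists the third partner, Nup58, was not taken by the rule and was at 50.5 TPM in siSCR and 43.0 TPM in siChd4. All 3 nuclear basket genes were lower, where 55.3% of all genes were. Nup153, which binds importins and Ran at the nuclear face, was at 81.9 TPM in siSCR and 63.1 TPM in siChd4 (0.771-fold, 0.735 to 0.808). Tpr, the main protein of the basket filaments, was at 95.6 TPM in siSCR and 80.0 TPM in siChd4. Nup50, which helps to release importin alpha cargo, was at 80.9 TPM in siSCR and 72.8 TPM in siChd4.

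Of the 6 compared cytoplasmic and mRNA export nucleoporins, 0 were 1.2-fold lower on the TPM plus 1 scale, where 22.3% of all genes were. Ranbp2 passed that limit with a pseudocount of 0.1. The median log2 ratio of the 6 genes, -0.11, was the closest to 0 of the 9 roles. Ranbp2, the large SUMO ligase of the cytoplasmic filaments, was at 67.6 TPM in siSCR and 56.2 TPM in siChd4 (0.832-fold, 0.799 to 0.866). Aaas, which is held at the pore by Ndc1 and is mutated in triple A syndrome, was at 81.4 TPM in siSCR and 68.8 TPM in siChd4 (0.845-fold, 0.776 to 0.921). The platform genes Nup214 and Nup88 had TPM folds of 0.908 and 0.937. Gle1, which activates the helicase that strips exported mRNA of its proteins, had a fold of 0.966 (0.901 to 1.04). Rae1, an mRNA export factor that also acts at the mitotic spindle, was the 1 nucleoporin above 0 on this scale among the compared members. It was at 67.7 TPM in siSCR and 76.2 TPM in siChd4 (1.13-fold, 1.03 to 1.23). The listed Nup42 was absent under that symbol. Nupl2, its older symbol, was not taken by the rule and was also higher, at 10.7 TPM in siSCR and 13.0 TPM in siChd4 (1.21-fold, 1.03 to 1.44).

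**Figure D2:**
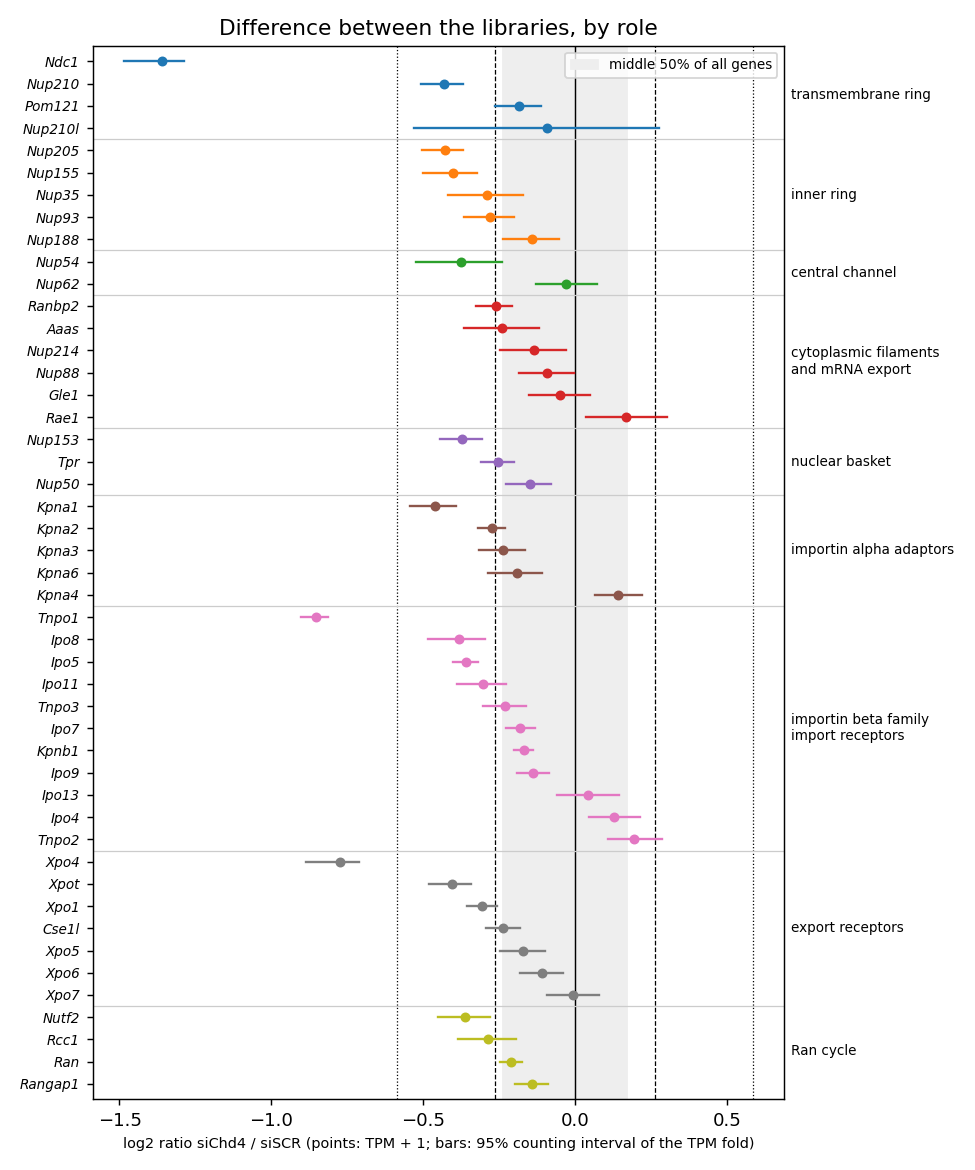
Log2 ratio of siChd4 over siSCR for the 47 genes by role (points, TPM plus 1), with the 95% counting interval of the TPM fold (bars). Dashed and dotted lines are 1.2-fold and 1.5-fold limits, and grey marks the middle 50% of all genes, from -0.24 to 0.17; Ndc1, Tnpo1 and Xpo4 lie beyond the left dotted line.

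Importin alpha proteins are adaptors that bind the classical nuclear localisation signal and hand the cargo to importin beta. Kpna2, the form typical of dividing and stem cells, made up most of the pool, at 563 TPM in siSCR and 465 TPM in siChd4 (0.826-fold, 0.801 to 0.852). Kpna1, the form associated with neurons, was at 87.1 TPM in siSCR and 63.0 TPM in siChd4 (0.723-fold, 0.686 to 0.763), the lowest ratio of the adaptors. Kpna3 was at 93.5 TPM in siSCR and 79.2 TPM in siChd4, and Kpna6 at 48.3 TPM in siSCR and 42.2 TPM in siChd4. Kpna4 was the exception, at 86.1 TPM in siSCR and 95.1 TPM in siChd4 (1.11-fold, 1.05 to 1.17). The summed level of the adaptors was 878 TPM in siSCR and 744 TPM in siChd4. Within it, the share of Kpna2 was 62.5% in siChd4 and 64.1% in siSCR, and that of Kpna1 was 8.46% and 9.92%. The share of Kpna4 was 12.8% in siChd4 and 9.80% in siSCR, so that the order of Kpna1, Kpna3 and Kpna4 differed between the libraries. Reads of Kpna2 are uncertain: 92.4% of the 50-base words of its longest GENCODE transcript also occur in transcripts of other genes, most of them in the predicted gene Gm10184.

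**Figure D3:**
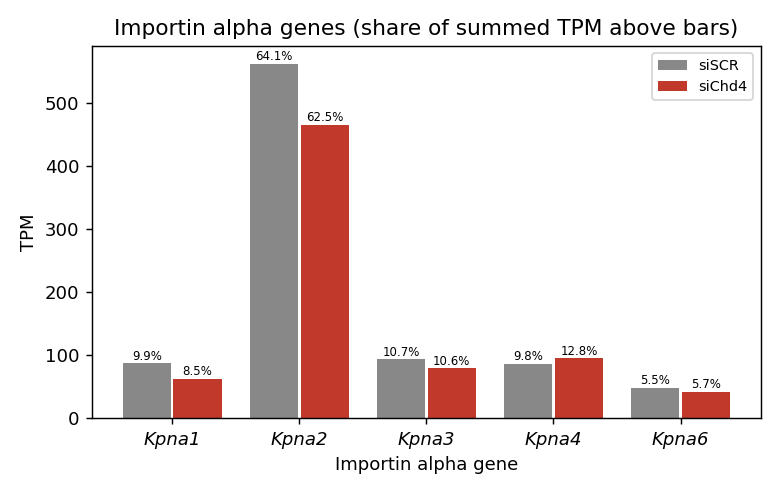
TPM of the 5 importin alpha genes above the level limit in siSCR (grey bars) and siChd4 (red bars), 1 library each, with each gene's share of the summed adaptor TPM above its bar. Kpna2 holds most of the pool in both libraries, and Kpna4 is the 1 gene whose red bar is the taller.

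The import receptors of the importin beta family ranged from much lower to slightly higher. Tnpo1, which imports RNA-binding proteins such as hnRNP A1, was at 182 TPM in siSCR and 101 TPM in siChd4. Its TPM fold was 0.552 (0.535 to 0.569), and 1.34% of all genes had a lower ratio than its -0.85. Its close paralog Tnpo2 was at 46.4 TPM in siSCR and 53.3 TPM in siChd4 (1.15-fold, 1.08 to 1.22), the highest ratio of the 47. The TPM ratio of Tnpo1 to Tnpo2 was 3.93 in siSCR and 1.89 in siChd4. Tnpo3, which imports SR splicing factors, was at 108 TPM in siSCR and 92.2 TPM in siChd4.

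Kpnb1, importin beta itself, was at 366 TPM in siSCR and 325 TPM in siChd4 (0.890-fold, 0.871 to 0.909). Ipo5, a receptor for ribosomal proteins and histones, was at 306 TPM in siSCR and 239 TPM in siChd4 (0.779-fold, 0.758 to 0.801). Ipo8, linked to import of Smad and Argonaute proteins, was at 50.1 TPM in siSCR and 38.2 TPM in siChd4 (0.763-fold, 0.715 to 0.814). Both were past the 1.2-fold limit, and so was Ipo11, a receptor for ubiquitin-conjugating enzymes, at 85.4 TPM in siSCR and 68.9 TPM in siChd4. Ipo7, which imports ribosomal proteins, was at 200.2 TPM in siSCR and 177 TPM in siChd4. Ipo9, the importer of histones H2A and H2B, was at 134 TPM in siSCR and 122 TPM in siChd4. Ipo13, which carries cargo both ways, was nearly equal, at 55.3 TPM in siSCR and 57.0 TPM in siChd4 (1.03-fold, 0.960 to 1.10). Ipo4, an importer of histones H3 and H4, was at 73.7 TPM in siSCR and 80.7 TPM in siChd4 (1.09-fold, 1.03 to 1.16). The histone importers were thus not uniform in direction. Reads of Ipo4 are uncertain, since 59.5% of its 50-base words occur in an overlapping predicted gene on the same strand, Gm49378.

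All 7 export receptors were below 0, though Xpo7 was above 0 under other scalings, and their median log2 ratio was -0.24. At least 1.2-fold lower were 3 of them. Over all genes compared, 55.3% were below 0 and 22.3% were at least 1.2-fold lower. Xpo4, which exports eIF5A and Smad3 and imports Sox factors, was at 41.1 TPM in siSCR and 23.6 TPM in siChd4. Its TPM fold was 0.575 (0.541 to 0.611), and 1.80% of all genes had a lower ratio than its -0.77. Xpot, the exporter of transfer RNA, was at 82.7 TPM in siSCR and 62.2 TPM in siChd4 (0.752-fold, 0.717 to 0.789). Xpo1, the receptor for leucine-rich nuclear export signals, was at 188 TPM in siSCR and 152 TPM in siChd4 (0.808-fold, 0.781 to 0.836). Cse1l, which returns importin alpha to the cytoplasm, was at 188 TPM in siSCR and 159 TPM in siChd4 (0.848-fold, 0.816 to 0.883). This adaptor exporter was lower by about as much as the summed adaptors, whose ratio was 0.848. Xpo5, the exporter of precursor microRNA, was at 76.4 TPM in siSCR and 67.8 TPM in siChd4. Xpo6, the exporter of actin with profilin, was at 100.4 TPM in siSCR and 93.0 TPM in siChd4. Xpo7, a receptor with broad cargo, was equal within counting error, at 52.9 TPM in siSCR and 52.6 TPM in siChd4 (0.995-fold, 0.939 to 1.06).

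All 4 genes of the Ran cycle were lower, where 55.3% of all genes were, with a median log2 ratio of -0.25. Ran, the GTPase that sets the direction of transport, was the most abundant gene of the set, at 789 TPM in siSCR and 682 TPM in siChd4 (0.864-fold, 0.844 to 0.885). Nutf2, which carries Ran-GDP back into the nucleus, was at 154 TPM in siSCR and 120 TPM in siChd4 (0.776-fold, 0.731 to 0.823). Rcc1, the chromatin-bound exchange factor that loads Ran with GTP, was at 109 TPM in siSCR and 88.9 TPM in siChd4 (0.819-fold, 0.766 to 0.875). Rangap1, which triggers GTP hydrolysis at the cytoplasmic face, was at 246 TPM in siSCR and 223 TPM in siChd4 (0.906-fold, 0.873 to 0.941). Both the nuclear and the cytoplasmic regulator were thus below siSCR. Nutf2 has a retrogene copy that holds 91.1% of its 50-base words, so its reads are uncertain as well.

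Sequence copies and overlaps touch other members too. In all, 8 of the compared genes had over 10% of their 50-base words in other annotated genes: besides Kpna2, Ipo4 and Nutf2 these were Nup35 (44.9%), Nup54 (20.3%), Ran (15.4%), Xpot (14.4%) and Tnpo1 (14.1%). For Ndc1 and Xpo4 the figure was below that limit. Genes on the opposite strand covered over 10% of the exon bases of 2 members, Pom121 (11.9%, by Nsun5) and Tnpo2 (10.6%). Whether the counting used strand is not stated in the labels, so reads of these pairs cannot be told apart.

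Related genes of nuclear transport outside the rule varied by list. Over all genes compared, 55.3% were below 0 and 22.3% were at least 1.2-fold lower. Of the 9 genes of the Y complex with Nup98, 8 were below 0 and 3 were at least 1.2-fold lower, with a median log2 ratio of -0.24, equal to that of the 47 members. Of 21 mRNA export and capping genes, 13 were below 0 (55.3% over all genes) and 3 were at least 1.2-fold lower, with a median log2 ratio of -0.07. The most abundant of them were Ddx39b, an export helicase (439 TPM in siSCR and 426 TPM in siChd4), and Thoc7, of the THO complex (246 TPM in siSCR and 223 TPM in siChd4). Of 10 Ran regulators and SUMO pathway genes, 7 were below 0 and 3 were at least 1.2-fold lower, with a median of -0.08 and a mean of -0.19. Rangrf, a Ran release factor, was the 1 past 1.5-fold, at 66.5 TPM in siSCR and 36.4 TPM in siChd4 (0.547-fold, 0.463 to 0.642). Seh1l, the Y complex gene in the series title, was at 44.5 TPM in siSCR and 34.9 TPM in siChd4.

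Genes of mitosis differed in the same direction and by more. Of 20 G2/M genes, 19 were below 0 and 15 were at least 1.2-fold lower, with a median of -0.36. Ccnb1 and Ccnb2, the B-type cyclins, had TPM folds of 0.636 and 0.641, and Cenpf, a kinetochore protein that also binds the pore in G2, had a fold of 0.642. Of 20 S phase genes, 19 were below 0 and 2 were at least 1.2-fold lower, with a median of -0.13. Over all genes compared, 55.3% were below 0. At least 1.2-fold lower were 22.3% of all genes, a larger share than the 10% of the S phase list. Whether the level of cell cycle genes has a part in the ratios of pore and transport genes was not tested.

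**Figure D4:**
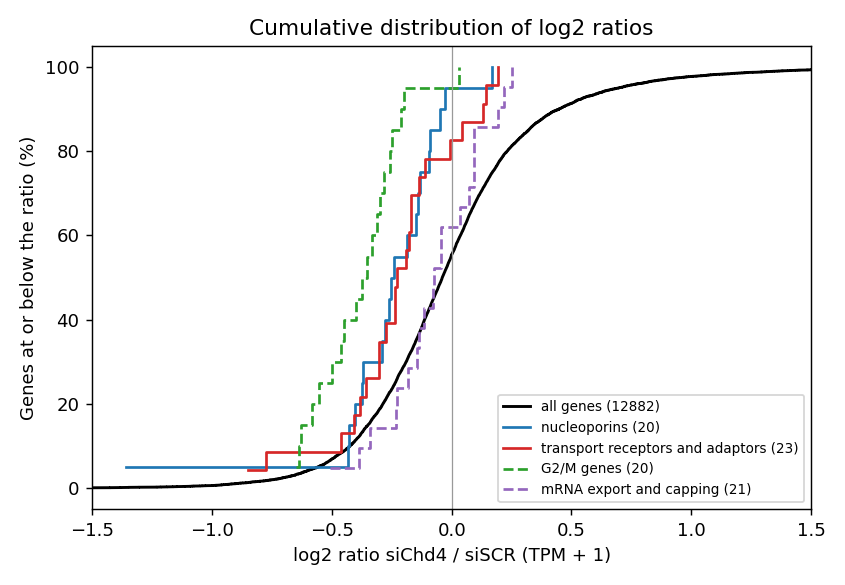
Share of genes (percent) at or below each log2 ratio of siChd4 over siSCR, for all genes compared (12882), 20 nucleoporins, 23 transport receptors and adaptors, 20 G2/M genes and 21 mRNA export and capping genes. The curves of nucleoporins and receptors lie left of that of all genes over most of their range and right of the G2/M curve over most of its range; genes beyond the axis are not drawn.

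The difference between nucleoporins and receptors as groups was not tested. The 20 nucleoporins had a median log2 ratio of -0.25, with 19 below 0 and 8 at least 1.2-fold lower. The 23 receptors and adaptors had a median of -0.23, with 19 below 0 and 9 at least 1.2-fold lower. Over all genes compared, 55.3% were below 0 and 22.3% were at least 1.2-fold lower. With the trend with transcript length subtracted, the medians of nucleoporins and of receptors and adaptors were -0.08 and -0.18. Without Ndc1, Tnpo1 and Xpo4, which were chosen for this after their values were seen, the median of the other 44 was -0.22, and the lowest ratio among them was that of Kpna1, -0.46.

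Transcript length moved with the ratio. Over all genes longer transcripts had lower ratios (Spearman rho -0.18 over 12872 genes), and 36 of the 47 members were longer than the median gene, with a median length of 4.57 kb against 2.94 kb. Across the 47 members rho was -0.26. These points share the same libraries. With the trend of all genes subtracted, the members' median log2 ratio was -0.18, with 38 below 0 and 13 at least 1.2-fold lower, where 49.8% and 17.1% of all genes were. On that scale Ndc1 was at -1.31, Tnpo1 at -0.65 and Xpo4 at -0.56, the last inside the 1.5-fold limit. The long genes Ranbp2 and Tpr were at -0.03 and -0.07, against -0.26 and -0.25 before, and Tnpo2 was at 0.29. The inner ring and the Ran cycle, at -0.25 and -0.24, were the lowest of the 9 roles.

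**Figure D5:**
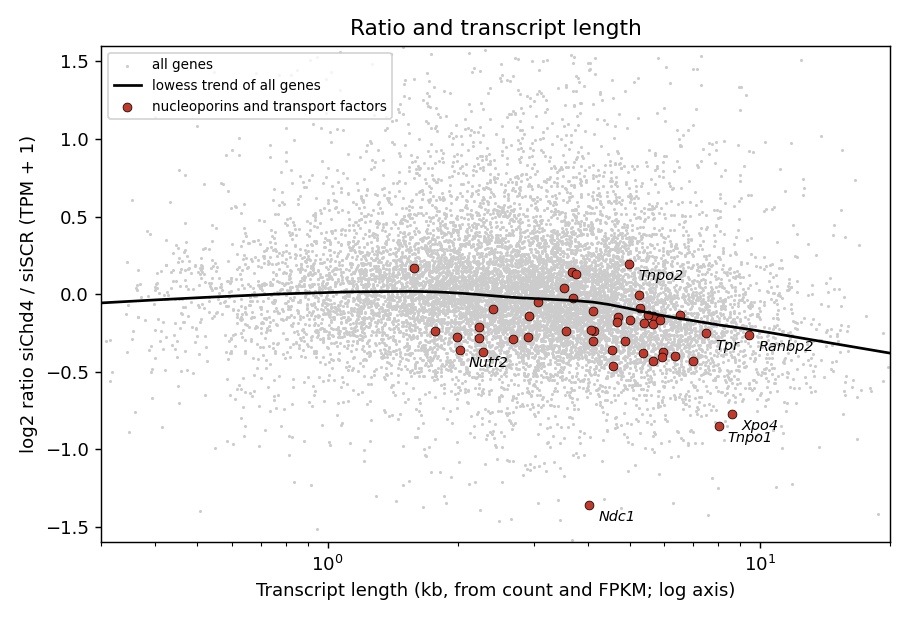
Log2 ratio of siChd4 over siSCR against transcript length in kb (log axis) for all genes (grey), with their lowess trend (black line) and the 47 pore and transport genes (red). The trend falls for long transcripts, and Ndc1, Tnpo1 and Xpo4 lie far below it; genes beyond the axes are not drawn.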

How the data were processed

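RNA-seq of 2 libraries, siSCR and siChd4, was analysed. The authors' deposited table gives FPKM, TPM and read counts per gene, per the file headers. The deposited counts are estimated counts, since only 16.0% (siSCR) and 17.8% (siChd4) of values, zeros included, were exactly whole as printed. Reads were placed on mm39, according to the submitters' processing notes. The aligner, counter, strand setting and duplicate handling are not stated in the labels.

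Log2 ratios used TPM plus a pseudocount of 1, over genes whose mean TPM reached 1. Single libraries per group allowed no test. Exact Clopper-Pearson 95% intervals came from the counts rounded to whole numbers. Such intervals cover counting error only and hold no term for the spread between cultures. Reads carrying no molecular identifier may also repeat a molecule, which the intervals do not cover. Transcript length was the ratio of counts to FPKM. It was the basis of a lowess trend (span 0.3). Every gene the symbol rule finds could be named, with Chd4 and Seh1l. Of each related list, up to 3 genes a direction past 1.5-fold, or else the 2 most abundant, were named. Members, lists and limits were chosen with earlier results of these data known. Copies were searched as 50-base words in GENCODE M21 transcripts, and promoter letters in RefSeq windows, both of GRCm38, which is not the build of the table. The interval and ratio code was tested on simulated data. Alternatives were other scalings, filters, units and length handling. Tools were Python 3.11.15, scipy 1.17.1, statsmodels 0.14.6 and, for TMM scaling, edgeR 4.0.16.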

Additional observations from a re-analysis of the deposited data

How the results depend on the processing

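Of the 47 compared genes, 37 were below 0 and 5 above 0 in the setting used above and in 9 other settings of scaling, filter, unit and length. The sign of Gle1, Nup210l, Nup214, Nup62 and Xpo7 differed between settings. Ndc1 and Tnpo1 were at least 1.5-fold lower in each setting and 10 genes at least 1.2-fold lower. Members at least 1.2-fold lower numbered 13 on FPKM (15.4% of all genes), 13 with upper quartile scaling (17.9%), 13 after subtraction of the length trend (17.1%), 14 on CPM with TMM scaling (19.4%) and 15 with median-of-ratios scaling (18.7%), against 19 (22.3%). With no filter on low values, and with the length trend subtracted, 1 member was at least 1.2-fold higher: Nup62cl in the first case and Tnpo2 in the second. With a mean TPM of at least 5, 533 of 10884 genes were at least 1.5-fold higher, against 870 of 12882. Why the number was smaller was not tested. On FPKM 295 genes were at least 1.5-fold lower, against 576. The pseudocount of 1 was also added to FPKM, although Ndc1 had 35.9 FPKM beside 90.2 TPM in siSCR. The median log2 ratio over all genes was 0.02 on FPKM, against -0.04. The part of each in the smaller number was not tested. Without Ndc1, Tnpo1 and Xpo4, chosen after seeing the data, 0 members were at least 1.5-fold lower, by construction. Chd4 had a log2 ratio of -0.25 with median-of-ratios scaling, -0.24 with upper quartile scaling, -0.14 after subtraction of the length trend and -0.23 on FPKM, against -0.29. Depth limits Nup210l, Nup62cl and Kpna7. No paired analysis was possible because there was a single library per group.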

Other observations

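The nuclear envelope around the pores was mixed. Of 18 nuclear envelope and lamina genes, 10 were below 0, near the 55.3% of all genes, with a median log2 ratio of -0.13. At least 1.2-fold lower were 6, and 1 was at least 1.2-fold higher. Over all genes, 22.3% were that much lower and 18.1% that much higher. The most abundant were Banf1, a chromatin-bridging protein of the envelope (398 TPM in siSCR and 333 TPM in siChd4), and Lmnb1, lamin B1 (400.3 TPM in siSCR and 302 TPM in siChd4). The lowest ratio of the 18 was that of Syne2, with a log2 ratio of -0.58 (0.647-fold, 95% counting interval 0.608 to 0.687). The torsin cofactor genes Tor1aip1 and Tor1aip2 had TPM folds of 0.688 and 0.673. Syne2 and both cofactor genes were chosen after their values were seen. Sun2, an inner membrane protein that links the envelope to the cytoskeleton and likewise chosen afterwards, was at 37.9 TPM in siSCR and 47.3 TPM in siChd4 (1.25-fold, 95% counting interval 1.15 to 1.35).

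Of 13 genes for assembly and disassembly of the pore and envelope, 5 were at least 1.2-fold lower and 3 higher, with a median of -0.04. Over all genes, 22.3% were that much lower and 18.1% that much higher. The most abundant were Rtn3, a membrane-curving reticulon (1.05-fold), and Chmp4b, of the membrane-sealing ESCRT-III complex (0.972-fold). The remaining genes of this paragraph were chosen after their values were seen. Lower were Ahctf1, which seeds pores on chromatin (0.796-fold), and the mitotic kinase genes Nek2 (0.794-fold), Nek6 (0.699-fold), Nek7 (0.728-fold) and Vrk1 (0.724-fold). Higher were Chmp7, which recruits ESCRT-III to the reforming envelope, at 69.5 TPM in siSCR and 94.5 TPM in siChd4 (1.36-fold, 1.27 to 1.46), Vps4a, the ATPase that recycles it (1.26-fold), and the reticulon gene Rtn4 (1.21-fold).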
